A study of Mus musculus with 15 samples.

Results

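The interferon-stimulated genes described here are the genes that cells switch on when they sense interferon, followed across 15 mouse mammary tumors that differ in their Ctnnb1 (beta-catenin) alleles. The list holds 37 genes, of which 33 were in the table under a probe set (transcript cluster) assigned to that gene alone, out of 22180 genes in all. Where a gene had several such clusters, the brightest stood for it. Of the 4 others, Oas1a, Gbp2 and Dtx3l shared their clusters with a neighboring gene (Oas1g, Gbp2b and Parp9), and Ifi44 was unnamed here. Of the 33, 32 passed the filter on low values and were tested, and Mx1 did not pass. The rule that chose them uses no measured value. The genes were still chosen with earlier results of these data known. Counts of members that differ between genotypes are therefore a description.

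Type I interferons, secreted proteins such as interferon alpha and beta, bind a receptor made of Ifnar1 and Ifnar2 on nearly every cell type. The kinases Jak1 and Tyk2 then phosphorylate Stat2, which joins Irf9 in a complex that binds the interferon-stimulated response element in the promoters of these genes. Their products sense foreign or misplaced nucleic acid, block viral replication and, through Irf7 and the sensors themselves, feed back on interferon production. In tumors the program can be active in cancer cells and in the immune and stromal cells around them. Interferon gamma, made by T and NK cells, works through the receptor chains Ifngr1 and Ifngr2 and induces an overlapping set of genes.

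All tumors arose in ErbB2KI mice, in which the ErbB2 receptor tyrosine kinase is knocked in, and were flash frozen at end burden. In the WT group both Ctnnb1 alleles were wild type (wt/wt), in the HET group 1 allele was floxed (fl/wt) and in the HOM group both were floxed (fl/fl), with 5 tumors in each group. Per the study's design, the deletion of beta-catenin was directed to the mammary epithelium. Labels do not give the promoter that drives the recombinase, whether the WT mice carry it, the age of the mice or whether each tumor came from its own mouse, and the p-values cover only the variation among the tumors sampled. Each tumor was measured on 1 Affymetrix whole-transcript array from 100 ng of total RNA, and values are log2 array signals as deposited, compared between tumors for the same gene and never between genes.

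Array medians lay between 5.54 and 5.73, the highest being that of HOM 5. Ctnnb1, the targeted gene, had means of 11.84 ± 0.39 in WT, 11.50 ± 0.19 in HET and 11.48 ± 0.33 in HOM (SD, n = 5 each), and the differences did not pass the test (HET minus WT -0.34, limma adjusted p = 0.448). WT 5, at 11.22, was below 4 of the 5 HOM tumors and HOM 5, at 12.01, was above WT 1 and WT 5, so those 2 tumors went against their labels on this gene, although whether the array's probes cover the deleted part was not tested. WT 5 and HOM 1 were the most alike of all pairs of tumors across the tested genes (r = 0.977, against a median of 0.913). Some HET tumors also stood apart in their cell makeup: B and plasma cell markers of HET 1 averaged 4.32 log2 units above their 15-tumor means and skeletal muscle markers of HET 3 averaged 5.16 above, while mammary epithelial markers such as Krt8 (11.64 to 12.60) and Epcam (9.31 to 12.31) were above the array median in all 15 tumors.

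The binding site of the complex that holds Stat2 and Irf9 has as its core a pair of GAAA tetramers with 2 bases of any kind between them. This response element core was searched on both strands, overlapping copies included, in the promoters that RefSeq annotates (GRCm38.p6), in windows from 250 bases before to 50 bases after the transcription start. Of the 37 listed genes, 28 had a window, and 16 of these (57.1%) held a match, as did 1079 of all 27025 genes (3.99%). These 6 promoters belong to genes whose values are given tumor by tumor, and they show where the match lies and that several genes carry overlapping copies. Each is the 250 bases before the start, 5′ to 3′ on the gene's own strand, with the matches in capitals.
Stat2, chr10:128270248-128270497, plus strand: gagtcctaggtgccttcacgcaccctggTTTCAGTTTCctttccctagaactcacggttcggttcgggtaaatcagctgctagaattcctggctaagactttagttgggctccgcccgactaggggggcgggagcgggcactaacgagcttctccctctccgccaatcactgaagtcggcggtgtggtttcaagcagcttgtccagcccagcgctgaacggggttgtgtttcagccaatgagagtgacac
Isg15, chr4:156200819-156201068, minus strand: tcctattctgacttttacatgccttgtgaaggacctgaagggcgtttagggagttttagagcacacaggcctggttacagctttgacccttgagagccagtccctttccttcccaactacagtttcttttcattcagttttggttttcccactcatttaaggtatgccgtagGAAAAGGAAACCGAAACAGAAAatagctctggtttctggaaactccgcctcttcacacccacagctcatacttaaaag
Ifit1, chr19:34640639-34640888, plus strand: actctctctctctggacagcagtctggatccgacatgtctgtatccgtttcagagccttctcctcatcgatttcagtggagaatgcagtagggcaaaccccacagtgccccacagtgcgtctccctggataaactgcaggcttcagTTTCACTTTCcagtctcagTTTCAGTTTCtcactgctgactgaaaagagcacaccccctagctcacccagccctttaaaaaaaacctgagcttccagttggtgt
Rsad2, chr12:26456453-26456702, minus strand: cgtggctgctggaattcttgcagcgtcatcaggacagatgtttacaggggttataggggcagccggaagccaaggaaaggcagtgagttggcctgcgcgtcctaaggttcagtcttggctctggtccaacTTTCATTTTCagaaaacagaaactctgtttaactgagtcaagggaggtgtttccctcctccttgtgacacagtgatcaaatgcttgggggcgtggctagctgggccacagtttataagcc
Bst2, chr8:71537473-71537722, minus strand: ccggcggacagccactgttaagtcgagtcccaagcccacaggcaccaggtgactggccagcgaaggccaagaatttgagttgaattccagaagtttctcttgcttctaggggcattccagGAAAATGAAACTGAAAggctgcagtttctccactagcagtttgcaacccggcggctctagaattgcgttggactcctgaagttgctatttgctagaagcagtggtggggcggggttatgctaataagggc
Irgm1, chr11:48871421-48871670, minus strand: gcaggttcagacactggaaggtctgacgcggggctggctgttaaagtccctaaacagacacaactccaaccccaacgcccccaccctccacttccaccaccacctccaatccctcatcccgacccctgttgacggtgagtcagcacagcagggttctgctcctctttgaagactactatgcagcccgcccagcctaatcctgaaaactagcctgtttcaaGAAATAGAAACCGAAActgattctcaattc
In Isg15 there are 3 overlapping copies whose first bases lie 78, 72 and 66 bases before the start, and in Bst2 and Irgm1 a pair of overlapping copies, 130 and 124 bases before the start in Bst2 and 30 and 24 in Irgm1. Ifit1 has separate matches 104 and 85 bases before the start, and Stat2 and Rsad2 have single matches 222 and 120 bases before it. In Ddx58, Ifih1 and Eif2ak2 the match begins 2, 32 and 18 bases after the start base (TTTCGATTTC, GAAACAGAAA and GAAAACGAAA). The windows of Irf7, Irf9, Herc6, Oasl1, Oasl2, Cmpk2, Samd9l, Xaf1, Ifit2, Ifi35, Ifi44 and Dtx3l held no match, which says only that these letters are not in them.

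The interferon-stimulated genes moved together from tumor to tumor, and their level differed several-fold between tumors of the same genotype. The mean over the 33 genes of each gene's log2 deviation from its own 15-tumor mean, called the mean deviation below, was -0.058, 0.36, 1.78, 0.91 and -0.39 in WT tumors 1 to 5, -0.51, -0.77, -0.90, -0.59 and 1.14 in HET tumors 1 to 5, and -1.17, -0.0016, -0.77, 0.59 and 0.37 in HOM tumors 1 to 5. The program was thus high in WT 3, HET 5, WT 4 and HOM 4 and low in HOM 1, HET 3, HOM 3 and HET 2, and the 3 groups overlapped. The SD within genotypes was 0.81. WT 3 had the highest value of all 15 tumors for 29 of the 33 genes and HET 5 was among the top 3 for 29, while HOM 1 had the lowest for 13, HET 2 for 8 and HET 3 for 7. Within genotypes, WT 3 was the highest WT tumor for 33 genes, HET 5 the highest HET tumor for 32, and HOM 4 or HOM 5 the highest HOM tumor for 22 and 10. HET 3, HOM 1 and HOM 3 were below the gene's mean for all 33 genes, and WT 3 and HET 5 above it for all 33. In bulk tumor RNA, fewer cells expressing these genes and less RNA per cell cannot be told apart.

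**Figure D1:**
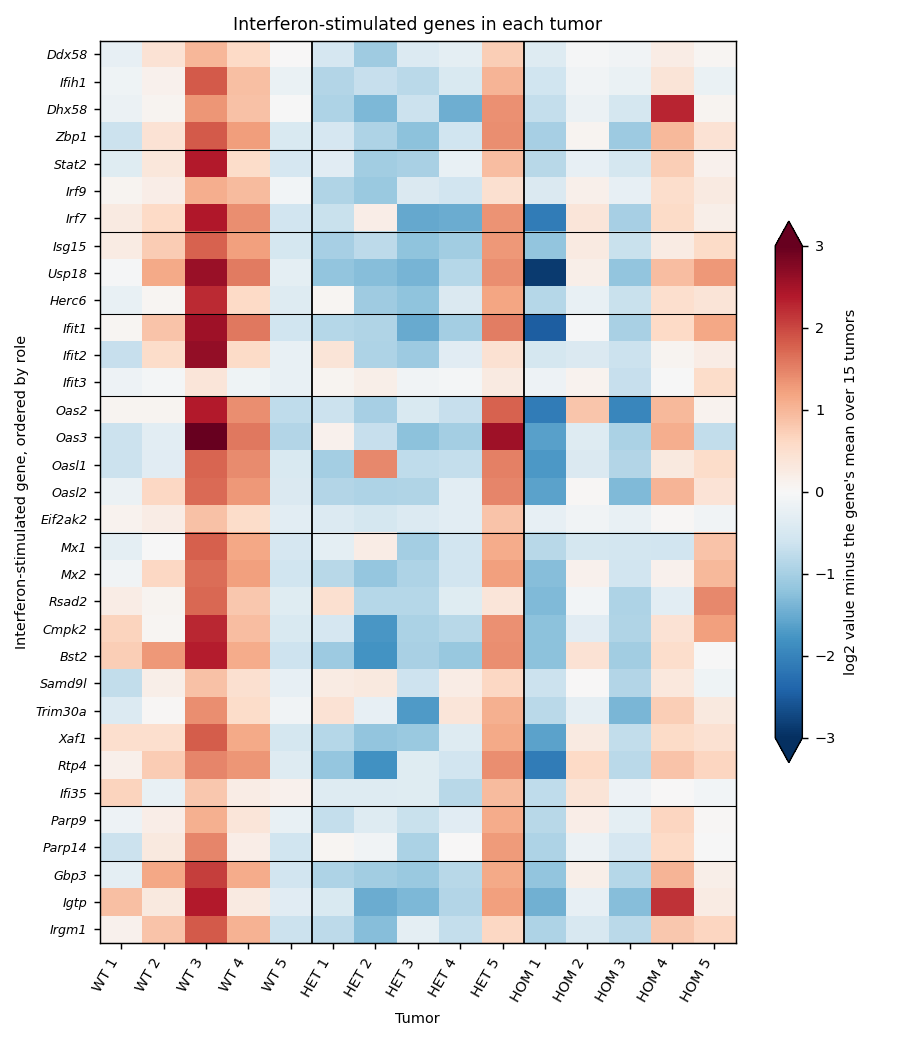
Log2 value of each of 33 interferon-stimulated genes (rows, in groups by role) minus its mean over the 15 tumors, for each tumor (columns, 5 per genotype); red is above and blue below the gene's mean, and deviations past the ends of the scale take the end color. Columns WT 3 and HET 5 are red for all 33 genes and HET 3, HOM 1 and HOM 3 are blue for all 33.

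The genes' agreement can be given as the correlation of each pair over the 15 tumors, as a description, since all values of a tumor share its array. Over the 528 pairs of the 33 genes the median Pearson r was 0.81, from 0.22 to 0.99, and 501 pairs were above 0.5, while the median over all pairs of tested genes was 0.011. With each genotype's mean removed the median over the 528 pairs was 0.81. Without WT 3 and HET 5, the tumors farthest from the median, it was 0.71 (-0.12 to 0.98), with 420 pairs above 0.5. Ifit1, Zbp1 and Oasl2 followed the mean of the other members most closely (r = 0.97 each), and Ifit3 the least (r = 0.50), followed by Samd9l (0.72), Oasl1 (0.74) and Ifi35 (0.76). The size of the swings differed: Usp18 spanned 44.6-fold from its lowest to its highest tumor, Ifit1 32.7-fold, Oas3 27.9-fold, Irf7 22.6-fold and Oas2 22.2-fold, whereas Eif2ak2 spanned 2.65-fold and Ifit3 2.37-fold.

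The 3 transcription factors of the list differed in spread: from the lowest to the highest tumor, Irf7 spanned 22.6-fold, Stat2 10.7-fold and Irf9 4.6-fold. Irf7, the factor that amplifies interferon production and is itself induced by it, had values of 10.41, 10.74, 12.54, 11.54 and 9.56 in WT tumors 1 to 5, 9.48, 10.35, 8.61, 8.65 and 11.49 in HET tumors 1 to 5, and 8.04, 10.50, 9.13, 10.72 and 10.32 in HOM tumors 1 to 5. WT 3 was the highest and HOM 1 the lowest, and HET 2, low for most other members, was not low for Irf7. Irf9, the DNA-binding partner of Stat2, read 9.64, 9.77, 10.65, 10.51 and 9.48 in WT tumors 1 to 5, 8.66, 8.45, 9.13, 8.99 and 10.04 in HET tumors 1 to 5, and 9.13, 9.71, 9.31, 10.10 and 9.84 in HOM tumors 1 to 5. HET tumors 1 to 4 lay below every WT tumor for Irf9, and HET 5 lay among the WT tumors. Stat2, the subunit found in the type I but not the gamma complex, read 8.21, 8.91, 10.95, 9.13 and 8.08 in WT tumors 1 to 5, 8.23, 7.53, 7.61, 8.35 and 9.51 in HET tumors 1 to 5, and 7.74, 8.33, 8.06, 9.31 and 8.71 in HOM tumors 1 to 5. WT 3 stood apart, HET 5 came next, and the other 13 tumors spanned 7.53 to 9.31.

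Of the cytosolic nucleic acid sensors, Ddx58 (RIG-I, which binds RNA with a triphosphate end) had values of 10.27, 10.96, 11.52, 11.11 and 10.52 in WT tumors 1 to 5, 10.01, 9.45, 10.11, 10.24 and 11.25 in HET tumors 1 to 5, and 10.13, 10.48, 10.41, 10.73 and 10.59 in HOM tumors 1 to 5. HET tumors 1 to 4 were below every WT tumor, by a small margin in HET 4. Ifih1 (MDA5, which binds long double-stranded RNA) read 8.98, 9.23, 10.96, 10.02 and 8.91 in WT tumors 1 to 5, 8.23, 8.43, 8.29, 8.64 and 10.13 in HET tumors 1 to 5, and 8.50, 8.99, 8.91, 9.49 and 8.91 in HOM tumors 1 to 5. Dhx58 (LGP2, a regulator of both) read 8.81, 9.07, 10.31, 9.87 and 8.98 in WT tumors 1 to 5, 8.06, 7.64, 8.34, 7.53 and 10.37 in HET tumors 1 to 5, and 8.27, 8.82, 8.47, 11.28 and 9.07 in HOM tumors 1 to 5. Its highest tumor was HOM 4, followed by HET 5 and WT 3, and HET 2 and HET 4 were the lowest. Zbp1, a sensor of left-handed nucleic acid, had means of 9.51 ± 1.08 for WT, 8.66 ± 1.03 for HET and 8.90 ± 0.90 for HOM (SD, n = 5 each).

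In the Isg15 system, Isg15 (a ubiquitin-like protein attached to other proteins) read 6.59, 7.10, 8.11, 7.56 and 5.79 in WT tumors 1 to 5, 5.34, 5.54, 5.12, 5.29 and 7.64 in HET tumors 1 to 5, and 5.16, 6.61, 5.66, 6.57 and 6.90 in HOM tumors 1 to 5. HET 1 to 4 were below every WT tumor, HOM 1 was as low as they were, and HET 5 was above every WT tumor but WT 3. Isg15 was above the array median in 10 tumors, and HET 1 to 4 and HOM 1 were below it, so these were low readings. Usp18, which removes Isg15 and damps signaling at the receptor, read 9.99, 11.16, 12.62, 11.57 and 9.74 in WT tumors 1 to 5, 8.84, 8.74, 8.63, 9.17 and 11.41 in HET tumors 1 to 5, and 7.14, 10.19, 8.83, 10.95 and 11.31 in HOM tumors 1 to 5. Its HOM tumors alone ran from 7.14, the lowest of the 15 tumors, to 11.31. Herc6, the mouse ligase for Isg15, had means of 9.12 ± 1.06 for WT, 8.37 ± 0.97 for HET and 8.50 ± 0.61 for HOM.

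Among the Ifit genes, whose proteins bind foreign RNA caps and ends, Ifit1 read 8.86, 9.66, 11.36, 10.38 and 8.21 in WT tumors 1 to 5, 7.94, 7.90, 7.30, 7.78 and 10.34 in HET tumors 1 to 5, and 6.33, 8.78, 7.84, 9.41 and 9.96 in HOM tumors 1 to 5. Its order of tumors was close to that of the mean deviation, with WT 3, WT 4 and HET 5 on top and HOM 1 at the bottom. Ifit2 had means of 6.76 ± 1.27 for WT, 5.89 ± 0.72 for HET and 5.94 ± 0.38 for HOM, with WT 3 at 8.82 against 5.51 to 6.76 in the other WT tumors. It was above the array median in 11 tumors. Ifit3, the least variable member, had means of 6.89 ± 0.23 for WT, 7.01 ± 0.15 for HET and 6.90 ± 0.45 for HOM, with HOM 5 (7.49) and not WT 3 (7.30) on top.

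The Oas enzymes make the messenger that activates RNase L, and Eif2ak2 (PKR) halts translation on double-stranded RNA. Oas2 read 8.61, 8.60, 10.89, 9.90 and 7.75 in WT tumors 1 to 5, 7.86, 7.52, 8.06, 7.83 and 10.28 in HET tumors 1 to 5, and 6.41, 9.35, 6.56, 9.5 and 8.62 in HOM tumors 1 to 5. Within HOM, HOM 1 and HOM 3 were more than 2 log2 units below the other 3 tumors. Eif2ak2 read 7.62, 7.74, 8.40, 8.08 and 7.20 in WT tumors 1 to 5, 7.11, 7.00, 7.12, 7.20 and 8.38 in HET tumors 1 to 5, and 7.28, 7.42, 7.29, 7.55 and 7.42 in HOM tumors 1 to 5. WT 3 and HET 5 were the highest and close to each other, and 11 of the tumors lay between 7.00 and 7.62. Oas3 had means of 8.23 ± 1.74 for WT, 7.59 ± 1.54 for HET and 7.12 ± 1.01 for HOM, Oasl2 10.99 ± 0.92 for WT, 10.08 ± 1.03 for HET and 10.10 ± 1.13 for HOM, and Oasl1 8.46 ± 1.14 for WT, 8.21 ± 1.27 for HET and 7.68 ± 0.91 for HOM. In Oasl1, HET 2 (9.56) stood beside HET 5 (9.64) and away from the other HET tumors (7.10 to 7.39), unlike in the other Oas genes.

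Of the restriction factors, Bst2 (tetherin, which holds budding virus on the cell surface) read 8.53, 9.11, 10.16, 8.92 and 7.19 in WT tumors 1 to 5, 6.72, 6.0, 6.82, 6.66 and 9.19 in HET tumors 1 to 5, and 6.58, 8.24, 6.76, 8.32 and 7.79 in HOM tumors 1 to 5. HET tumors 1 to 4 were below every WT tumor, as were HOM 1 and HOM 3, and HET 5 was above every WT tumor but WT 3. Rsad2 (viperin, which makes a chain-terminating nucleotide) read 8.19, 8.04, 9.70, 8.79 and 7.60 in WT tumors 1 to 5, 8.44, 7.10, 7.11, 7.60 and 8.33 in HET tumors 1 to 5, and 6.65, 7.89, 7.05, 7.66 and 9.40 in HOM tumors 1 to 5. HOM 5 came next after WT 3, and HET 5 was below HET 1, so Rsad2 did not keep the order of the other members. Mx1, a GTPase that traps viral nucleoproteins, read 4.86, 5.14, 6.94, 6.30 and 4.63 in WT tumors 1 to 5, 4.85, 5.37, 4.11, 4.56 and 6.26 in HET tumors 1 to 5, and 4.31, 4.62, 4.58, 4.57 and 6.0 in HOM tumors 1 to 5. It was above the array median in 4 tumors and so was not tested, and WT 3, WT 4, HET 5 and HOM 5 were its highest.

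Samd9l, a translation-restricting factor, read 5.70, 6.60, 7.30, 6.91 and 6.17 in WT tumors 1 to 5, 6.66, 6.70, 5.80, 6.65 and 7.05 in HET tumors 1 to 5, and 5.78, 6.44, 5.55, 6.74 and 6.29 in HOM tumors 1 to 5. HET 1, 2 and 4 were level with WT 2 here, not below it. Mx2 had means of 6.70 ± 0.93 for WT, 5.68 ± 0.96 for HET and 6.01 ± 0.85 for HOM, and was above the array median in only 8 tumors. Cmpk2, a nucleotide kinase and neighbor of Rsad2, had means of 9.33 ± 1.02 for WT, 8.11 ± 1.16 for HET and 8.48 ± 1.0 for HOM. For Xaf1 the means were 8.87 ± 0.87 for WT, 7.71 ± 0.96 for HET and 7.97 ± 0.94 for HOM, for Rtp4 9.69 ± 0.78 for WT, 8.52 ± 1.20 for HET and 8.86 ± 1.27 for HOM, for Trim30a 6.64 ± 0.71 for WT, 6.33 ± 1.05 for HET and 6.07 ± 0.84 for HOM and for Ifi35 10.11 ± 0.42 for WT, 9.59 ± 0.67 for HET and 9.67 ± 0.41 for HOM. In all of these except Ifi35 WT 3 was the highest tumor, and in Ifi35 HET 5 was.

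Parp14, a mono-ADP-ribosyltransferase, read 8.17, 9.11, 10.28, 9.0 and 8.21 in WT tumors 1 to 5, 8.88, 8.70, 7.85, 8.83 and 10.08 in HET tumors 1 to 5, and 7.88, 8.63, 8.30, 9.41 and 8.81 in HOM tumors 1 to 5. HET 1, 2 and 4 lay between WT 5 and WT 4, and WT 3 and HET 5 were on top. Parp9, the partner of Dtx3l, had means of 9.23 ± 0.52 for WT, 8.78 ± 0.76 for HET and 8.93 ± 0.55 for HOM. Irgm1, an immunity-related GTPase that acts on vacuoles and mitochondria, read 8.41, 9.15, 10.11, 9.32 and 7.63 in WT tumors 1 to 5, 7.51, 7.00, 7.99, 7.57 and 8.91 in HET tumors 1 to 5, and 7.37, 7.79, 7.46, 9.08 and 8.93 in HOM tumors 1 to 5. WT 3 was the highest, and HOM 4, HOM 5 and HET 5 lay among WT 1 to 4. Gbp3 had means of 7.43 ± 1.10 for WT, 6.18 ± 0.95 for HET and 6.60 ± 0.89 for HOM and Igtp (Irgm3) 9.66 ± 1.03 for WT, 8.37 ± 1.09 for HET and 8.85 ± 1.46 for HOM, and in Igtp HOM 4 (11.14) came close to WT 3 (11.33).

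**Figure D2:**
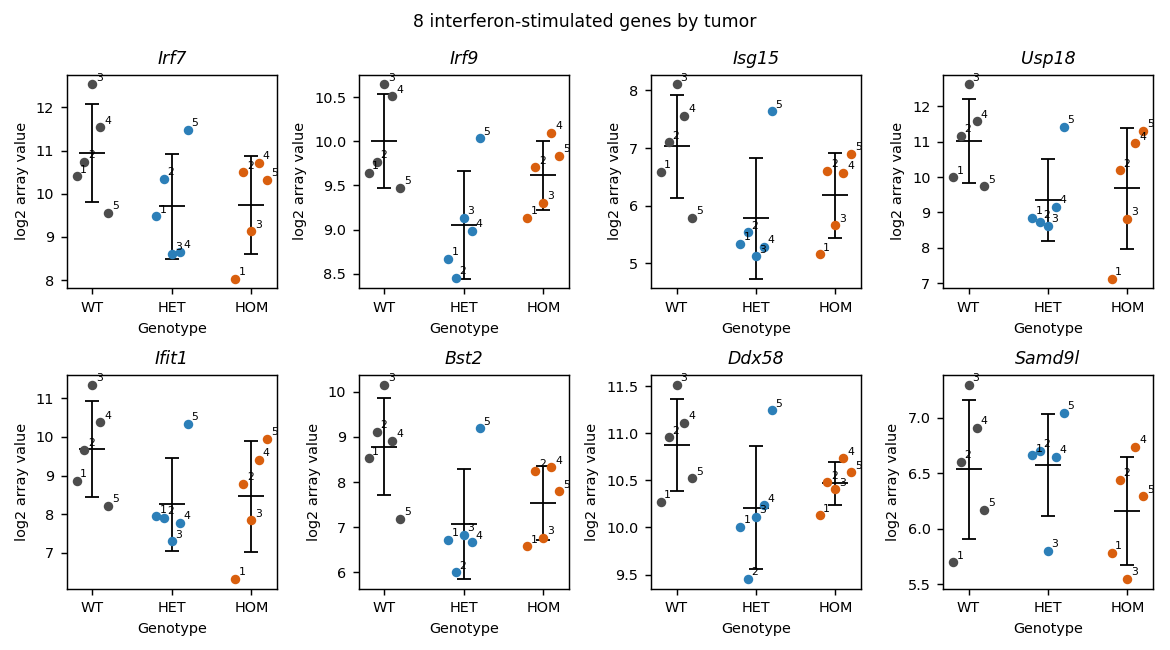
Log2 array value (y axis) of 8 interferon-stimulated genes by genotype (x axis), with 1 point per tumor, numbered 1 to 5 within its group; the long bar is the mean and the whiskers are 1 SD (n = 5). In Irf9, Isg15, Usp18, Ifit1, Bst2 and Ddx58, HET tumors 1 to 4 lie below every WT tumor and HET 5 lies among the WT tumors.

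The HET tumors had lower mean levels than the WT tumors for 30 of the 32 tested members, and Ifit3 and Samd9l were higher by 0.12 and 0.037 log2 units. The largest differences were those of Bst2 (-1.70 log2 units, 3.26-fold), Usp18 (-1.66, 3.16-fold) and Ifit1 (-1.44, 2.71-fold). The median over the 32 was -0.87, against -0.030 over all genes tested. None passed the test (limma, adjusted p under 0.05 by Benjamini-Hochberg over 14243 genes), in a comparison that called 0.014% of all genes, and the lowest adjusted p was 0.245, for Irf9. In all, 6 members had an unadjusted p under 0.05 (Ddx58, Irf9, Isg15, Bst2, Gbp3 and Irgm1), each lower in HET, where 13.4% of all genes were under it in either direction and 8.38% as lower. Of all genes, 54.5% had a lower and 45.5% a higher mean in HET. The members were chosen with earlier results known. Their shares are not independent of these data. By role, all 4 sensors, 3 transcription factors, 3 genes of the Isg15 system and 3 GTPases had the lower mean in HET, with medians of -0.86, -0.96, -1.25 and -1.25, as did the 4 tested Oas genes and Eif2ak2 (median -0.63) and 8 of 9 effectors (median -1.02). Parp9 and Parp14 had the smallest median, -0.27.

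Irf9 differed by -0.96 log2 units (95% interval -1.62 to -0.29, limma adjusted p = 0.245), Bst2 by -1.70 (95% interval -3.02 to -0.38, adjusted p = 0.279) and Isg15 by -1.25 (95% interval -2.38 to -0.11, adjusted p = 0.338). Irgm1 differed by -1.13 (adjusted p = 0.346), Gbp3 by -1.25 (0.371) and Ddx58 by -0.67 (0.354). For no member were the groups free of overlap, as they were for 1.05% of all genes with HET lower and 0.534% with HET higher. In Irf9, Isg15, Bst2 and Ddx58 HET 5 was the only HET tumor within the WT range, and the same held in Ifih1, Usp18, Ifit1, Eif2ak2, Cmpk2, Gbp3 and Igtp. In Dhx58, Ifi35 and Parp9 HET 5 lay above every WT tumor and the other HET tumors below every one. The remaining members had more HET tumors within the WT range. How many of all genes show such a split was not counted. Without HET 5 the median difference was -1.29 and 23 of the 32 members had an unadjusted p under 0.05, where 19.0% of all genes did, yet none passed the adjusted threshold (lowest 0.0682, Irf9); with any other single tumor left out, the count lay between 2 (6 of the tumors) and 14 (WT 5), and the share of all genes between 9.28% (HET 2) and 17.2% (HET 3). Without WT 3 the median was -0.52. HET 1 and HET 3, which stood apart in cell makeup, had mean deviations (-0.51 and -0.90) below the HET average (-0.32). Leaving both out therefore narrows the difference in mean deviation between HET and WT. Without WT 5 and HOM 5, the tumors that went against their labels on Ctnnb1, 15 members had an unadjusted p under 0.05, where 14.3% of all genes did, and the median was -1.09. WT 5 was the lowest WT tumor for 24 of the 33 members, so leaving it out widens this difference through its own member values.

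The HOM tumors were compared with the same WT tumors, so both comparisons share their controls. Mean levels were lower in HOM for 31 of the 32 tested members, and Ifit3 was level (0.0061). The median was -0.76, against -0.012 over all genes, and 52.8% of all genes had a lower and 47.2% a higher mean. Usp18 (-1.33, 95% interval -3.05 to 0.39), Bst2 (-1.24, 95% interval -2.56 to 0.079) and Irf7 (-1.21, 95% interval -2.67 to 0.24) were among the largest. No member passed the test, as no gene of the array did (0%), and no member had an unadjusted p under 0.05, where 1.7% of all genes did. Adjusted p-values of the members rounded to 1.0. Without WT 5 and HOM 5 the median was -1.19 and 10 members had an unadjusted p under 0.05, where 3.60% of all genes did; without WT 5 alone 6 members and 3.69% of all genes did. None of these members passed the adjusted threshold, and without WT 3 the median was -0.40. WT 5 had the lowest mean deviation of the WT tumors (-0.39), and HOM 5 (0.37) lay above the HOM average (-0.20). Leaving these tumors out therefore widens the difference through their own member values.

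Between the floxed groups the differences were smaller and of both signs. Means were higher in HOM than in HET for 25 of the 32 and lower for Ifit3, Oas2, Oas3, Oasl1, Samd9l, Trim30a and Parp14, with a median of 0.20 against 0.014 over all genes, of which 52.4% were higher and 47.6% lower in HOM. Dhx58 (0.79, 95% interval -0.51 to 2.10) and Irf9 (0.56, 95% interval -0.10 to 1.23, limma adjusted p = 0.661) were the largest on the higher side, and Oasl1 (-0.53, 95% interval -1.93 to 0.87) on the lower. For Samd9l the difference was -0.41 (95% interval -1.09 to 0.26). No member passed the test, and none of all genes did (0%); none of the members had an unadjusted p under 0.05, where 7.93% of all genes did (3.11% as lower in HOM). The intervals were wide (-2.30 to 1.35 in Oas3) and do not show that the groups were alike. The median was 0.51 without HET 5, -0.012 without HOM 4 and -0.067 without HET 1 and HET 3.

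**Figure D3:**
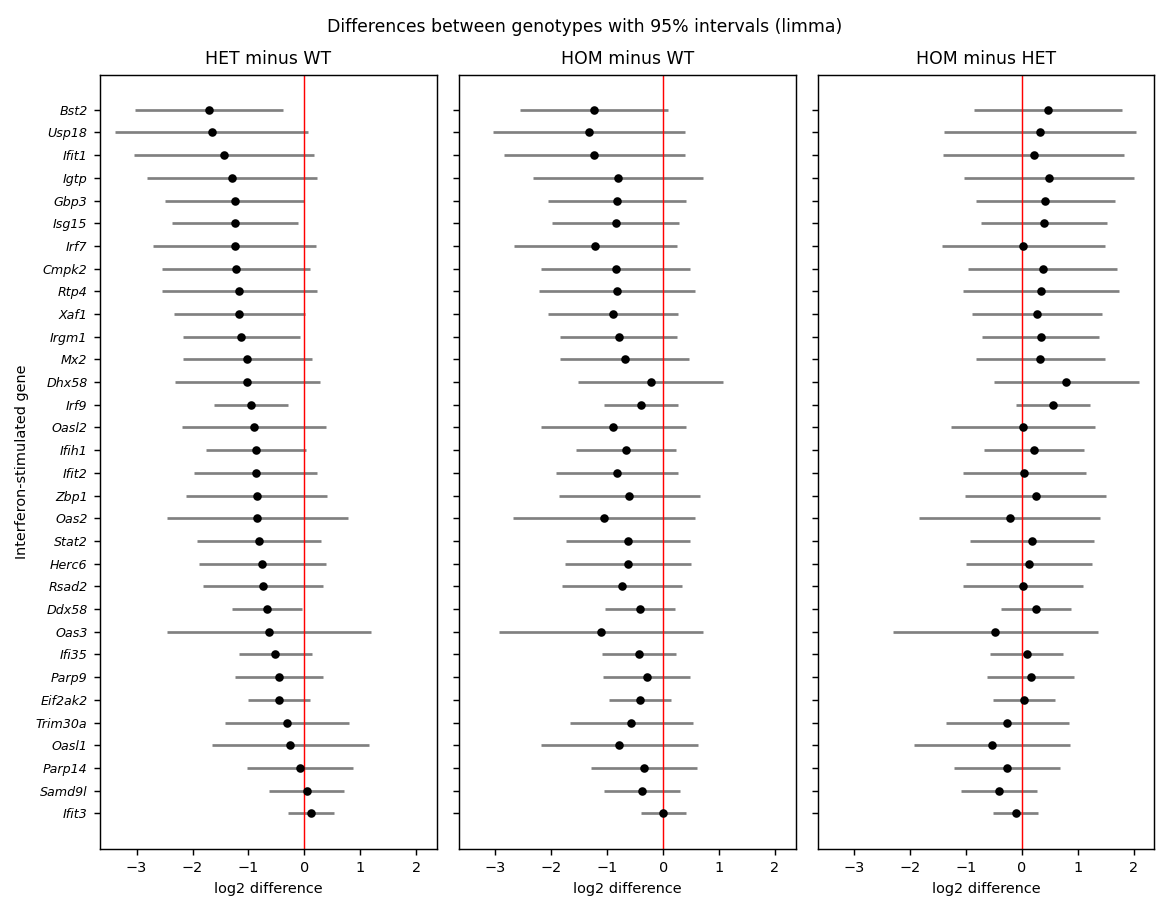
Difference in mean log2 value between genotypes (x axis) for the 32 tested interferon-stimulated genes (y axis, ordered by the HET minus WT difference), with 95% intervals from limma (n = 5 tumors per group). Points lie left of 0 for 30 genes in HET minus WT and 31 in HOM minus WT, and most intervals cross 0.

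The genes for the interferons themselves were mostly near or below the array median and varied little. Of 18 listed ligand genes 16 were in the table and 5 were tested, and none passed the test in any comparison. Ifnb1 was below the array median in all 15 tumors, at 3.33 ± 0.19 for WT, 3.53 ± 0.18 for HET and 3.60 ± 0.29 for HOM, and Ifng was above it in 2, at 5.44 ± 0.14 for WT, 5.44 ± 0.037 for HET and 5.52 ± 0.18 for HOM. Neither was tested. The tested ligands with the smallest p were Ifna1 (HOM minus HET 0.41, limma adjusted p = 0.587), Ifnl3 (HOM minus WT 0.21) and Ifna14 (HOM minus HET 0.10). WT 3 and HET 5, the tumors with the highest target genes, had ligand deviations of -0.067 and 0.0049 on average. The ligands' mean deviation had r = -0.16 with that of the members (rho = -0.22, and r = -0.070 without WT 3 and HET 5, n = 15 tumors). Mean deviations of this and the later lists average all listed genes in the table, tested or not. For the ligands most of these genes had low values, so this r cannot show how ligand expression varied.

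Of 10 listed receptors and kinases 9 were tested, and none passed. Ifnlr1, a chain of the lambda receptor, had the widest range of them (5.73 to 9.56, 14.2-fold) and the highest correlation with the members (r = 0.53), and its HET minus WT difference of -1.02 (95% interval -2.18 to 0.14, limma adjusted p = 0.417) was the largest of the list. Ifnar1 had means of 10.08 ± 0.26 for WT, 10.31 ± 0.24 for HET and 10.31 ± 0.092 for HOM and Ifnar2 of 10.94 ± 0.33 for WT, 10.96 ± 0.28 for HET and 11.10 ± 0.12 for HOM, with HET minus WT differences of 0.22 (95% interval -0.080 to 0.52) and 0.016 (95% interval -0.34 to 0.37). Ifngr1, the gamma receptor chain, differed by 0.54 (limma adjusted p = 0.34) and Jak1 by 0.38 (0.364), both with the higher mean in HET. In HOM minus HET the smallest p-values were those of Tyk2 (0.24) and Jak2 (-0.28). The list's mean deviation followed the members with r = 0.30 (rho = 0.21), and with r = -0.14 without WT 3 and HET 5.

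Upstream sensing genes gave mixed directions. Of 16 listed, 15 were tested, 8 with a lower and 7 with a higher mean in HET than in WT, and none passed. Ikbke, a kinase that activates Irf3 and Irf7, was higher in HET (1.06, limma adjusted p = 0.256) and Tlr3, the endosomal double-stranded RNA receptor, was lower (-0.90, 0.279). Ikbke read 7.92, 8.69, 8.04, 7.79 and 8.20 in WT tumors 1 to 5, 9.5, 9.90, 7.69, 9.01 and 9.87 in HET tumors 1 to 5, and 7.76, 8.54, 7.87, 8.56 and 8.34 in HOM tumors 1 to 5, so that HET 3 was the exception among the HET tumors. In HOM minus WT, Mavs (-0.25) and Rnf135 (-0.32) had the smallest p, and in HOM minus HET Ikbke (-0.98) and Irf3 (0.22). Negative regulators, 10 of 12 tested, gave 6 higher and 4 lower in HET, none past the test. Socs3, which blocks Jak kinases, differed by 0.84 in HET (0.266) and 0.63 in HOM against WT. The phosphatase Ptpn6 differed by 0.36 in HET minus WT and -0.38 in HOM minus HET, and Socs1 by -0.30 in the latter. Adar, the RNA editor with an interferon-inducible isoform, was the gene of this list that followed the members most (r = 0.93), with means of 8.68 ± 0.58 for WT, 8.25 ± 0.51 for HET and 8.20 ± 0.25 for HOM and a HOM minus WT difference of -0.47.

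Other known type I targets varied with the members in part. Of 42 listed, 36 were tested, 22 lower and 14 higher in HET than in WT (median -0.20) and 29 lower and 7 higher in HOM than in WT (median -0.29), none past the test. Their mean deviation followed that of the members with r = 0.90 (rho = 0.86, and r = 0.79 without WT 3 and HET 5), and 26 of the 36 had r above 0.5, where 3.86% of all tested genes did. Ddx60, a helicase that aids Ddx58, followed most closely (r = 0.96) and read 6.78, 7.59, 10.23, 8.39 and 6.29 in WT tumors 1 to 5, 6.95, 5.99, 5.85, 6.74 and 9.14 in HET tumors 1 to 5, and 5.09, 6.55, 5.87, 7.74 and 6.88 in HOM tumors 1 to 5. WT 3, HET 5, WT 4 and HOM 4 were its highest tumors, as they were in the mean deviation. Its HOM minus WT difference was -1.43 (95% interval -3.07 to 0.21), and that of Znfx1, a helicase of the outer mitochondrial membrane, -0.67 (95% interval -1.38 to 0.038).

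Ifitm1, a membrane protein that blocks viral entry, went the other way (r = -0.41) and read 4.67, 5.59, 5.56, 5.30 and 5.86 in WT tumors 1 to 5, 7.63, 8.87, 5.97, 7.85 and 5.46 in HET tumors 1 to 5, and 5.72, 6.11, 5.48, 5.33 and 6.68 in HOM tumors 1 to 5. HET 1, 2 and 4 were its highest tumors, and HET minus WT was 1.76 (limma adjusted p = 0.231). The neutrophil markers were highest in HET 2, 1 and 4 too, at mean levels of 11.0, 10.9 and 9.93 against 6.09 to 9.36 in the other 12 tumors, and their part in the Ifitm1 values was not tested. Ifi27, a mitochondrial protein, had a HET minus WT difference of -0.93 (adjusted p = 0.242) and a HOM minus HET difference of 0.89 (0.587), while Mlkl, the effector of necroptosis, differed by -0.53 in HOM minus HET.

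Interferon gamma-inducible genes varied with the members as well (r = 0.80, rho = 0.80, and 0.66 without WT 3 and HET 5), and 12 of 17 tested genes had r above 0.5. In HET minus WT 12 were lower and 5 higher (median -0.24), in HOM minus WT 14 lower and 3 higher (median -0.50), and none passed the test. WT 3 and HOM 4 were the highest tumors of this list, with mean deviations of 1.72 and 1.33, and HET 5 came next at 0.59. Iigp1, an immunity-related GTPase, read 8.43, 9.38, 10.87, 8.67 and 7.04 in WT tumors 1 to 5, 7.80, 6.38, 6.94, 6.99 and 8.33 in HET tumors 1 to 5, and 6.78, 8.74, 6.68, 10.71 and 8.98 in HOM tumors 1 to 5, with HET minus WT -1.59 (limma adjusted p = 0.386) and HOM minus HET 1.09. Irf1, a transcription factor induced by gamma, had means of 8.37 ± 0.46 for WT, 8.48 ± 0.61 for HET and 8.34 ± 0.56 for HOM, and HET minus WT was 0.11 (95% interval -0.58 to 0.80). Ido1, a tryptophan-degrading enzyme, ran against the members (r = -0.63) and was higher in HET by 0.39 (adjusted p = 0.293) and in HOM by 0.27. Gbp7 differed by -0.59 in HOM minus WT, and Cd274 (PD-L1) by -0.92 in HOM minus HET.

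**Figure D4:**
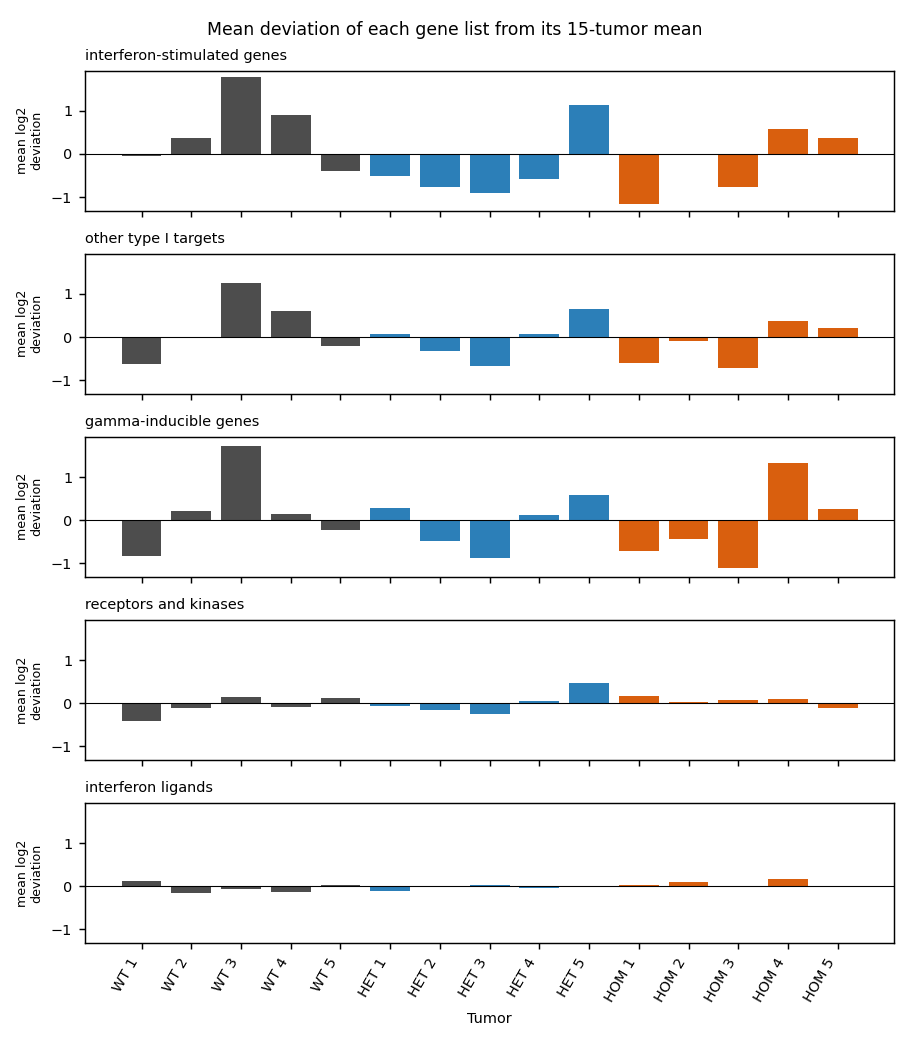
Mean log2 deviation from the 15-tumor mean (y axis, same scale in every panel) in each tumor (x axis; WT gray, HET blue, HOM orange) of the interferon-stimulated genes, other type I targets, gamma-inducible genes, receptors and kinases, and interferon ligands. WT 3 is the highest tumor in the first 3 panels, at 1.78, 1.25 and 1.72, and the ligand panel stays between -0.14 and 0.17.

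The mean deviation of each cell type's markers had a correlation between -0.42 and 0.18 with that of the members. All 10 pan-leukocyte markers were tested, and their mean deviation had r = 0.053 with that of the members (rho = 0.093); their mean level was 8.09 to 9.43 in WT, 8.45 to 10.1 in HET and 8.45 to 9.55 in HOM. HET 1, 4 and 2, with low members, had leukocyte levels of 10.1, 9.69 and 9.48, and HET 5, with high members, 8.96. The correlation was 0.15 for 10 macrophage markers, 0.18 for 12 T and NK cell markers and 0.058 for B and plasma cells. It was 0.083 for plasmacytoid dendritic cells, which are specialized interferon producers, and -0.42 for 8 neutrophil markers. These averages include untested genes, and the 8 tested T and NK markers taken singly had a median r of 0.25. Of the dendritic cell markers, Ccr9 was below the array median in all 15 tumors, and Klk1 had the widest range (57.3-fold, highest in HOM 2). Siglech, from 5.25 to 6.90, was above the array median in 9 tumors and highest in WT 3, with r = 0.27. Single markers reached higher values: Krt8 and Krt18, epithelial keratins, had r = 0.61 and 0.58, and Fcgr1, an Fc receptor of macrophages, 0.56, where 3.86% of all genes had r above 0.5. Mammary epithelial markers together gave r = 0.17, fibroblast markers -0.20 and endothelial markers -0.23.

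HET 5 had the lowest fibroblast (6.69) and endothelial (7.71) marker levels of the 15 tumors and the highest epithelial level (11.6), and HET 1 the lowest epithelial level (8.62). Neutrophil markers had a higher mean in HET than in WT for 8 of 8 genes (median difference 2.54), beside the lower means of the members. Of all genes, 45.5% had a higher mean in HET. In limma, 7 of the 8 had an unadjusted p under 0.05, where 13.4% of all genes did in either direction, and none passed the adjusted threshold. With the pan-leukocyte mean as a covariate the members' median HET minus WT difference was -1.10 and none was past the threshold. This single covariate does not separate the leukocyte types, and the part of each cell type in the differences was not tested.

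**Figure D5:**
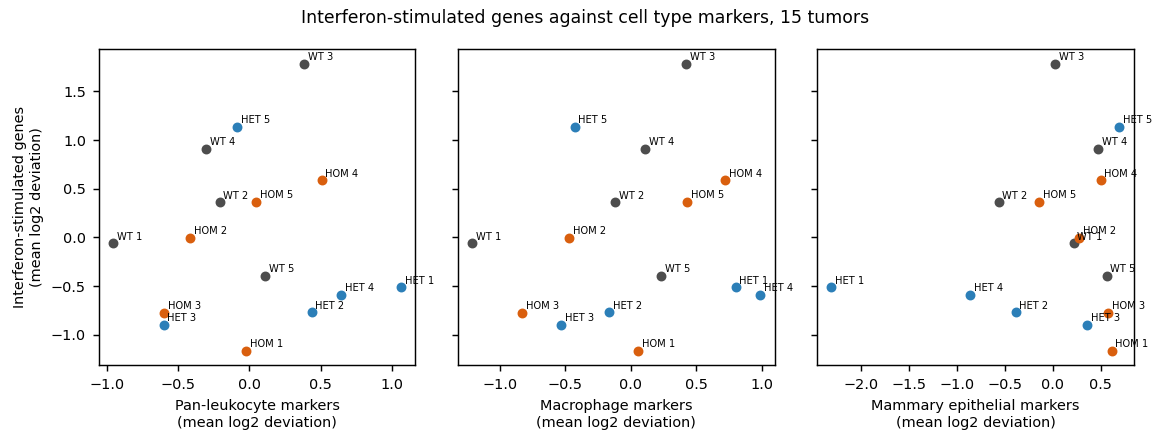
Mean log2 deviation of the 33 interferon-stimulated genes (y axis) against that of pan-leukocyte, macrophage and mammary epithelial markers (x axes) in the 15 tumors (WT gray, HET blue, HOM orange). WT 3 and HET 5, the highest on the y axis, lie at 0.38 and -0.085 on the leukocyte axis, and HET 1, the highest on that axis at 1.06, lies at -0.51 on the y axis.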

How the data were processed

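The deposited table holds log2 signals of 41345 transcript clusters in 15 tumors, made by the authors from Affymetrix arrays. Per the submitters' processing notes the software was Affymetrix Expression Console with Transcriptome Analysis Console, and the normalization is not given in the sources used here. Of the clusters, 23521 had 1 gene symbol, 1814 several and 16010 none, and the brightest cluster of each of 22180 genes was used. Symbols come from the platform annotation, checked against RefSeq by Entrez ID (23328 matched, 0 symbols changed).

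Genes above the array median on at least 5 arrays (14243) entered 1 limma fit of the 3 genotypes (limma 3.58.1, R 4.3.3; lmFit and eBayes, 12 residual df, two-sided, Benjamini-Hochberg over all tested genes, threshold 0.05). The number of arrays limits the precision. On simulated data for HET against WT, 64 of 100 genes changed by 1 log2 unit and 87 of 100 changed by 2 were recovered, with 5 false calls among 14243 genes. The changed genes were drawn at random from all tested genes and each was given independent noise, whereas the members moved together. These rates therefore do not tell how often a change in the members would be recovered.

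Members and lists were chosen with earlier results of these data known. Values in every tumor were given for lead members of each role and for the 3 members with the smallest p per comparison. From each pathway list the 2 tested genes with the smallest p per comparison were named, with Ifnar1, Ifnar2, Ifnb1, Ifng and Irf1, and the 5 genes outside the lists most like the members. Promoters were those of lead members with a cluster of their own whose match to the response element core precedes the start. Gbp2, which shared its cluster, also had a match before the start and was not printed. Tumor numbers follow the order of the samples and pair nothing. Alternatives covered the filter, the normalization, the choice of cluster, the model, a leukocyte covariate and left-out tumors.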

Additional observations from a re-analysis of the deposited data

Results flagged for a closer look

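Among 102 groups of 5 tumors tested with Dixon's gap test (each of the 33 genes and their mean deviation in each genotype), 18 held a tumor far from the other 4. Chance flags about 1 in 20 groups, and these groups are not independent, since the genes move together.

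HET 5 was far above the other HET tumors in 15 of the 18. Its log2 values were 10.13 in Ifih1, 10.37 in Dhx58, 10.43 in Zbp1, 7.64 in Isg15, 11.41 in Usp18, 10.34 in Ifit1, 10.28 in Oas2, 11.86 in Oasl2, 8.38 in Eif2ak2, 7.37 in Mx2, 9.19 in Bst2, 10.74 in Ifi35, 10.10 in Parp9 and 7.88 in Gbp3, and its mean deviation over the members was 1.14, against -0.90 to -0.51 in HET 1 to 4. HET 5 also had the lowest fibroblast marker level of the 15 tumors (6.69) and a pan-leukocyte level of 8.96, and their part in its values was not tested.

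The other 3 were single genes: HOM 4 at 11.28 in Dhx58, HOM 5 at 6.0 in Mx1, and WT 3 at 7.30 in Ifit3.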

How the results depend on the processing

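No member passed the adjusted threshold in any of the 3 comparisons under any of the 27 settings, 12 of them besides those that leave out 1 tumor, and the lowest adjusted p was 0.0682 (Irf9, HET against WT, without HET 5). Mx1 was tested only with no filter on low values. Leaving out 1 tumor at a time, the median difference of the members ranged from -1.29 (without HET 5) to -0.52 (without WT 3) for HET minus WT, from -0.98 (without WT 5) to -0.40 (without WT 3) for HOM minus WT, and from -0.012 (without HOM 4) to 0.51 (without HET 5) for HOM minus HET.

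Single members with a small difference changed sign. In HET minus WT, Samd9l was -0.052 with array weights, -0.26 with the leukocyte covariate and -0.054 without WT 5 and HOM 5, and ranged from -0.17 to 0.23 with 1 tumor left out; Parp14 was 0.25 without HET 1 and HET 3 and ranged from -0.39 to 0.25. Dhx58 in HOM minus WT ranged from -0.75 to 0.0038. In HOM minus HET without HET 1 and HET 3, Ifih1 was -0.11, Stat2 -0.034, Irf7 -0.42, Usp18 -0.087, Ifit1 -0.21 and Eif2ak2 -0.13, and without WT 5 and HOM 5, Irf7 was -0.12, Usp18 -0.078, Ifit1 -0.17 and Rsad2 -0.40. Irf7 (-0.11) and Rsad2 (-0.11) turned with array weights and Rsad2 (-0.0053) with arrays centred on their medians. With 1 tumor left out, HOM minus HET ranged from -0.037 to 0.50 in Stat2, -0.25 to 0.47 in Irf7, -0.078 to 0.96 in Usp18, -0.17 to 0.74 in Ifit1, -0.57 to 0.27 in Oas2, -0.058 to 0.29 in Eif2ak2, -0.40 to 0.28 in Rsad2 and -0.52 to 0.042 in Parp14. The cause was not tested. No paired analysis was possible because the labels carry no replicate numbers and the tumors were numbered in sample order.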

Other observations

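Outside the lists, the 5 tested genes whose values over the 15 tumors were most like the members' mean deviation were Psmb8, Parp12, Tap1, Ddx24 and Gm10499, with Pearson r of 0.96, 0.94, 0.94, 0.93 and 0.91, and 0.93, 0.88, 0.89, 0.86 and 0.80 without WT 3 and HET 5. They were picked for this likeness, so it is a description. Psmb8, a subunit of the immunoproteasome, had means of 9.65 ± 0.74 in WT, 8.98 ± 0.69 in HET and 9.05 ± 0.79 in HOM (SD, n = 5 each). Tap1, which carries peptides into the endoplasmic reticulum for loading on MHC class I, had means of 10.11 ± 0.88, 9.28 ± 0.69 and 9.55 ± 0.85. For Parp12, an ADP-ribosyltransferase, the means were 10.88 ± 0.67, 10.52 ± 0.77 and 10.25 ± 0.71. All 5 were highest in WT 3.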
